A study of Mus musculus with 4 samples.

Results

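Nuclear genes for the mitochondrial protein import machinery were followed in single nuclei of adult mouse brain. They were taken as every symbol that starts with Tomm or Timm and a digit, which gave 26 of the 32285 genes in the files. Of these, 25 are protein-coding, and Tomm6os is a non-coding transcript opposite Tomm6. Mitochondria make only a few of their own proteins, so nearly all others are imported from the cytosol. The translocase of the outer membrane (TOM) has receptors, a pore and small subunits, and most imported proteins pass it. Small TIM chaperones then guide hydrophobic proteins across the intermembrane space. The TIM23 complex moves presequence proteins into the inner membrane and matrix, and the TIM22 complex inserts carrier proteins into the inner membrane. Neurons depend on this supply along their axons and dendrites, and loss of the human small TIM protein TIMM8A causes a deafness and dystonia syndrome.

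The mice were wild-type C57BL/6, 10 weeks old, and their brain, less the cerebellum, was frozen on dry ice for 10 min, and up to 50 mg of it went into each nuclear extraction. The 4 groups were anaesthetised methanol, post-mortem methanol, anaesthetised unfixed and post-mortem unfixed. Anaesthetised means tissue taken through a craniotomy under isoflurane, a harvest the submitters call in vivo, and post-mortem means tissue taken after cervical dislocation. Methanol means that nuclei were fixed in 80% methanol at -20 °C for 30 min, and unfixed nuclei were not. Each group holds 1 library, so every ratio compares 2 libraries and no p-value is given, and harvest and fixation cannot be told apart from the animal, the tissue piece and the preparation.

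After filtering, the anaesthetised methanol, post-mortem methanol, anaesthetised unfixed and post-mortem unfixed libraries held 6822, 9800, 15119 and 12404 nuclei, with a median of 7830, 6287, 3021 and 3780.5 unique molecular identifiers (UMIs, 1 per captured transcript) per nucleus. Between 61 and 210 barcodes were shared by any pair of libraries, at most 1.45% of the smaller one. Levels are UMIs summed over nuclei and given per 1000000 UMIs of the same sum (CPM). They are shares of a library, so fewer nuclei of a type and less RNA per nucleus cannot be told apart. Intervals are exact 95% ranges of counting error only. A gene was measured at a mean of at least 10 CPM over the 4 libraries, and 15 of the 26 import genes and 9791 genes in all were. A gene was called higher when both pairs of a comparison gave a ratio of 1.5-fold or more, and lower when both gave such a ratio downwards.

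Factors of the GABP type and NRF1 are known regulators of nuclear genes for mitochondrial proteins. RefSeq windows from 250 bases before to 50 bases after the start were held for 23 of the 26 genes. The GABP letters CCGGAAG, on either strand, were present for 9 of these 23 (39.1%), against 9.93% of all 27025 genes with a window. They were Tomm22, Tomm34, Tomm70a, Timm8a2, Timm8b, Timm10, Timm10b, Timm23 and Timm29. The NRF1 letters, GCGC and GCGC with NN between them, were present for Tomm20 and Timm8b, 2 of 23 (8.70%), against 6.997% of all genes, and the letters of both motifs overlapped in 0 of the member windows. The 150 bases before the start follow for 4 genes, 5′ to 3′ on the gene's strand, from RefSeq on GRCm38.p6, with CCGGAAG or its reverse complement in capitals. Tomm70a is shown because its level set 1 neuronal class apart, and Timm8b, Timm13 and Tomm6 because all were called higher in methanol nuclei. The motif shares over all genes take in every gene with a window, measured here or not, and are no matched background for the import genes. The matches are a description of letters and no evidence of binding.
Tomm70a (chr16:57121564-57121713, plus strand): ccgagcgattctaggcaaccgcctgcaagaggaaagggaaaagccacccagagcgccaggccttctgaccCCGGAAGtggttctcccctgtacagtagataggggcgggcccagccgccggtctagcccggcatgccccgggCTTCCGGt
Timm8b (chr9:50603751-50603900, plus strand): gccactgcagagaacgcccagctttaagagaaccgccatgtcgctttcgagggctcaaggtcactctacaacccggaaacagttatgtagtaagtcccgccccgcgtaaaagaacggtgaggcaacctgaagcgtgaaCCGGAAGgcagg
Timm13 (chr10:80900970-80901119, minus strand): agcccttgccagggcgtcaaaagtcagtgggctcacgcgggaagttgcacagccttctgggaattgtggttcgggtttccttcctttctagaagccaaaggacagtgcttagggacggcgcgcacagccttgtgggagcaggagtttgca
Tomm6 (chr17:47688387-47688536, minus strand): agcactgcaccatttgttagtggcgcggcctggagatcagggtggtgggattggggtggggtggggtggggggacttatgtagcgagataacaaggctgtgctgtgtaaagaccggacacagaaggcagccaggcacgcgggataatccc
Tomm70a carries the letters once on each strand and Timm8b once, while neither the Timm13 nor the Tomm6 stretch holds them.

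Summed over all 26 genes, the import machinery made up 550.6 CPM in the anaesthetised methanol library, 654.5 CPM in the post-mortem methanol library, 500.8 CPM in the anaesthetised unfixed library and 606.9 CPM in the post-mortem unfixed library. The methanol over unfixed log2 ratio of the sum was 0.14 (0.11 to 0.16) in the anaesthetised pair and 0.11 (0.09 to 0.13) in the post-mortem pair. The anaesthetised over post-mortem log2 ratio was -0.25 in the methanol pair and -0.28 in the unfixed pair. An average nucleus gave 4.83 and 4.32 import UMIs in the anaesthetised and post-mortem methanol libraries, against 1.72 and 2.50 in the anaesthetised and post-mortem unfixed libraries, so single genes were read from sums and not from single nuclei. The small methanol over unfixed ratios of the sum hid genes that went opposite ways after fixation.

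**Figure D1:**
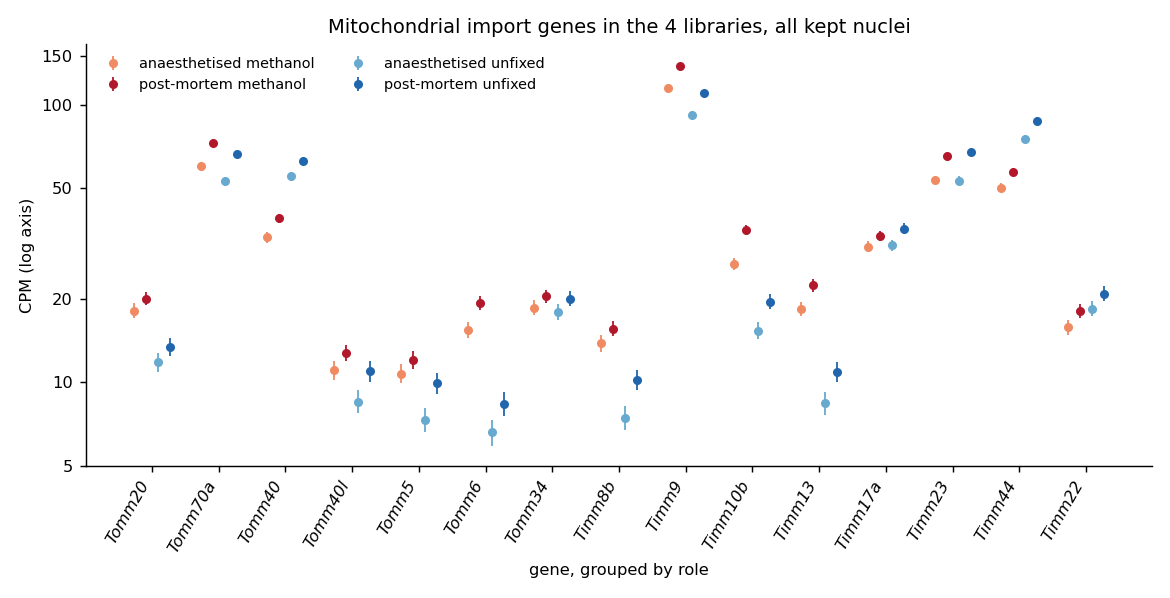
Level of each of the 15 measured import genes in the 4 libraries, in CPM on a log axis, with exact 95% counting intervals. Tomm6, Timm8b, Timm10b and Timm13 lie higher in both methanol libraries, and Tomm40 and Timm44 lie lower.

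With methanol, 4 of the 15 measured import genes were called higher (Tomm6, Timm8b, Timm10b and Timm13), where 3.48% of all measured genes were, and 2 were called lower (Tomm40 and Timm44), where 4.33% of all were. Of the 15 genes, 10 had ratios above 0 in both pairs, 4 below 0 in both and 1 was mixed, where 40.9% of all measured genes were above 0 in both pairs and 47.1% below. Their median log2 ratio was 0.32 in the anaesthetised pair and 0.22 in the post-mortem pair, against -0.02 and -0.03 over all measured genes. Of all genes called, 44.6% were higher, a share that became 58.2% when libraries were scaled by the median ratio over genes in place of their total UMIs (median-of-ratios scaling). With equal weights for the 7 nuclear classes described below, the anaesthetised pair gave ratios below 0 for Tomm40l (-0.12), Tomm5 (-0.14) and Timm9 (-0.22). The shares of nuclei in these classes differed with fixation. Nuclei that met no gate were 23.2% and 27.1% of the anaesthetised and post-mortem methanol libraries, against 39.2% and 37.8% of the unfixed ones. Oligodendrocytes were 13.2% and 15.8%, against 10.3% and 11.0%, while medium spiny nuclei were 12.1% and 16.1%, against 11.1% and 18.4%. The part of nuclear composition in the fixation ratios was not tested.

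Among the TOM receptors, which bind precursors at the mitochondrial surface, Tomm70a docks carrier precursors with their chaperones and Tomm20 recognises presequences. Tomm70a had 60.3 CPM in the anaesthetised methanol library and 72.7 CPM in the post-mortem methanol library, against 52.9 CPM in the anaesthetised unfixed and 66.5 CPM in the post-mortem unfixed library. Its methanol over unfixed log2 ratio was 0.19 (0.12 to 0.26) in the anaesthetised pair and 0.13 (0.06 to 0.19) in the post-mortem pair, well under the 1.5-fold mark. Tomm20 had 18.1 and 20.03 CPM in the anaesthetised and post-mortem methanol libraries, against 11.8 and 13.4 CPM in the unfixed ones. Both methanol libraries were above both unfixed ones, at log2 ratios of 0.62 (0.47 to 0.76) and 0.57 (0.44 to 0.71), and Tomm20 missed the call only because the post-mortem pair was 1.49-fold. The receptor Tomm22, under the minimum at a mean of 8.30 CPM, had log2 ratios of 0.67 and 0.70.

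Tomm40, the beta-barrel pore of the outer membrane, fell with methanol. It had 33.3 CPM in the anaesthetised methanol library and 39.0 CPM in the post-mortem methanol library, against 55.1 CPM and 62.6 CPM in the anaesthetised and post-mortem unfixed libraries. The log2 ratios were -0.73 (-0.81 to -0.64) and -0.68 (-0.76 to -0.61), and the levels of the methanol and unfixed libraries did not overlap. The call was lost with equal class weights, at -0.45 in the anaesthetised and -0.51 in the post-mortem pair. Its paralogue Tomm40l had 11.0 and 12.8 CPM in the anaesthetised and post-mortem methanol libraries, against 8.52 and 10.9 CPM in the unfixed ones, at log2 ratios of 0.37 (0.20 to 0.55) and 0.22 (0.07 to 0.38). The pore genes thus lay on opposite sides of 0 in both pairs, except that Tomm40l was below 0 in the anaesthetised pair with equal class weights.

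The small TOM subunits Tomm5 and Tomm6 steady the pore complex. Tomm6 had 15.5 CPM in the anaesthetised methanol library and 19.3 CPM in the post-mortem methanol library, against 6.60 CPM and 8.36 CPM in the anaesthetised and post-mortem unfixed libraries. It rose by log2 ratios of 1.23 (1.05 to 1.41) and 1.21 (1.05 to 1.37), and every methanol level was above every unfixed one. Tomm5 had 10.7 and 12.03 CPM in the anaesthetised and post-mortem methanol libraries, against 7.33 and 9.92 CPM in the unfixed ones, at log2 ratios of 0.55 (0.36 to 0.74) and 0.28 (0.11 to 0.44), and it was not called. At a 2-fold mark Tomm6 and Timm13 were the 2 import genes still called higher, where 0.296% of all measured genes were, and 0 import genes were called lower, where 2.19% of all were. With equal class weights neither passed 2-fold in both pairs, since Tomm6 had 0.65 and 0.82 and Timm13 had 0.84 and 0.51 in the anaesthetised and post-mortem pairs. The third small subunit, Tomm7, had a mean of 8.73 CPM and log2 ratios of 0.56 and 0.53. Tomm34, a cytosolic co-chaperone that works with Hsp70 and Hsp90, was nearly level at 18.6 and 20.4 CPM in the anaesthetised and post-mortem methanol libraries, against 17.9 and 19.97 CPM in the unfixed ones. Its ratios of 0.06 (-0.07 to 0.18) and 0.03 (-0.09 to 0.15) had intervals that include 0.

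The small TIM chaperones form rings of alternating subunits in the intermembrane space, Timm9 with Timm10 and Timm8 with Timm13. Timm13 had 18.3 CPM in the anaesthetised methanol library and 22.3 CPM in the post-mortem methanol library, against 8.41 CPM and 10.9 CPM in the anaesthetised and post-mortem unfixed libraries, and rose by log2 ratios of 1.12 (0.96 to 1.29) and 1.04 (0.90 to 1.18). Its partner Timm8b had 13.8 and 15.6 CPM in the anaesthetised and post-mortem methanol libraries, against 7.45 and 10.2 CPM in the unfixed ones, and rose by log2 ratios of 0.89 (0.71 to 1.07) and 0.61 (0.46 to 0.77). The methanol levels of both partners were above all their unfixed levels. The call of Timm8b was lost when every nucleus had the same weight and when the classes had equal weights, and that of Timm13 when the classes had equal weights. Timm10b, a small TIM that is part of the TIM22 complex, had 26.6 and 35.2 CPM in the anaesthetised and post-mortem methanol libraries, against 15.3 and 19.5 CPM in the unfixed ones, and rose by log2 ratios of 0.79 (0.67 to 0.92) and 0.85 (0.75 to 0.96). Timm9 had 115 CPM in the anaesthetised methanol library and 138 CPM in the post-mortem methanol library, against 92.0 CPM and 110 CPM in the anaesthetised and post-mortem unfixed libraries, at log2 ratios of 0.32 (0.27 to 0.37) and 0.33 (0.28 to 0.38). It was not called, and its ring partner Timm10, under the minimum at 1179 UMIs over the 4 libraries, had log2 ratios of 0.70 and 0.52.

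In the TIM23 complex, Timm23 and Timm17a line the channel and Timm44 ties the import motor to it on the matrix side. Timm44 had 50.2 CPM in the anaesthetised methanol library and 57.1 CPM in the post-mortem methanol library, against 75.5 CPM and 87.5 CPM in the anaesthetised and post-mortem unfixed libraries. It fell at log2 ratios of -0.59 (-0.66 to -0.52) and -0.62 (-0.68 to -0.55), just past the mark, and its call was lost under 5 of 6 alternative settings, although its ratio there was never closer to 0 than -0.50 in the anaesthetised pair and -0.54 in the post-mortem pair. Timm23 had 53.6 and 65.0 CPM in the anaesthetised and post-mortem methanol libraries, against 53.3 and 67.4 CPM in the unfixed ones, at log2 ratios of 0.01 (-0.07 to 0.08) and -0.05 (-0.12 to 0.01). Timm17a had 30.8 and 33.5 CPM in the anaesthetised and post-mortem methanol libraries, against 31.1 and 35.7 CPM in the unfixed ones. The channel genes were close to level. Timm22, the channel of the TIM22 complex, had 15.8 and 18.1 CPM in the anaesthetised and post-mortem methanol libraries, against 18.4 and 20.9 CPM in the unfixed ones, at log2 ratios of -0.22 (-0.36 to -0.09) and -0.21 (-0.33 to -0.09).

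By role, the sum of the small TOM subunits had log2 ratios of 0.81 in the anaesthetised pair and 0.71 in the post-mortem pair, that of the small TIM chaperones 0.50 and 0.49, and that of the receptors 0.28 and 0.23. The pore sum had -0.52 and -0.51, and the TIM23 sum -0.15 and -0.20. The genes within a role did not all follow its sum. The pore sum was below 0 with Tomm40 and not with Tomm40l, and in the TIM23 sum Timm44 was low while Timm23 was near 0. The TIM23 genes under the minimum were above 0. In the anaesthetised and post-mortem pairs Timm21 had log2 ratios of 0.96 and 0.61, past 1.5-fold, Timm50 had 0.60 and 0.45, and Timm17b had 0.01 and 0.16.

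**Figure D2:**
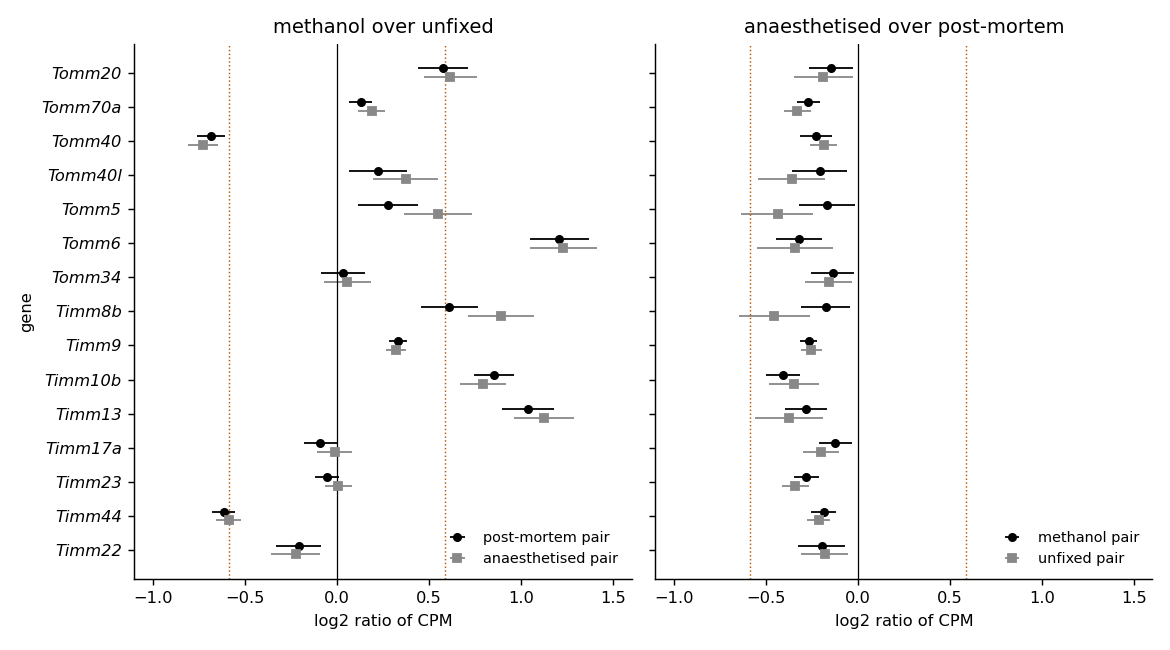
Log2 ratios of the 15 measured import genes with exact 95% counting intervals, methanol over unfixed on the left and anaesthetised over post-mortem on the right, with 1 symbol for each pair of libraries and dotted lines at 1.5-fold. Fixation ratios run from -0.73 to 1.23, while all harvest ratios lie between -0.45 and -0.12.

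The 11 import genes under the minimum were Tomm20l, Tomm22, Tomm7, Timm8a1, Timm8a2, Timm10, Timm17b, Timm21, Timm50, Timm29 and Tomm6os. They gave 3542 and 4734 UMIs in the anaesthetised and post-mortem methanol libraries, against 2039 and 2728 in the unfixed ones. The closest to the minimum were Timm50, the TIM23 receptor, at a mean of 9.62 CPM just outside and Tomm5 at 10.0 CPM just inside. Timm8a2, at 18 UMIs, and Tomm6os, at 75, were too rare to compare. Timm8a1 and Timm8a2 are paralogues, as are Timm17a and Timm17b, and reads of such pairs may be split between them. Of the 11, 9 had methanol over unfixed ratios above 0 in both pairs, with the rare Tomm6os among them and Timm17b at 0.006 in the anaesthetised pair. Of all measured genes 40.9% did, but that share is over genes at or above the minimum and is no matched background for these 11. The exception in the other direction was Tomm20l, a paralogue of Tomm20, at log2 ratios of -0.98 (-1.41 to -0.57) and -1.31 (-1.73 to -0.90) on 431 UMIs in all. It overlaps the end of Timm9 on the opposite strand, whose mean CPM was 57.8 times as high and whose ratios were 0.32 and 0.33, on the other side of 0.

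The 4 genes that rose are short. Their spans in the GENCODE annotation are 1411 bp for Timm8b (chr9:50603910-50605320), 1520 bp for Timm13 (chr10:80899450-80900969), 1741 bp for Tomm6 (chr17:47686646-47688386) and 3582 bp for Timm10b (chr7:105640056-105643637). Tomm40 (chr7:19701313-19715438) and Timm44 (chr8:4259731-4275913) span 14126 and 16183 bp. Of the 4 measured import genes under 3000 bp, Timm8b, Timm13 and Tomm6 were called higher and Tomm5 was not. Timm10b was the 1 measured import gene from 3000 to 6000 bp, and of the 10 longer ones 0 were called higher. Calls were also more frequent among short genes over the whole table. Of the 241 measured genes under 3000 bp, 41.1% were called higher with methanol, against 18.8% of genes from 3000 to 6000 bp, 2.82% of genes from 10000 to 20000 bp and 0.0943% of genes of 100000 bp or more. The median log2 ratio of genes under 3000 bp was 0.63 in the anaesthetised pair and 0.53 in the post-mortem pair. Tomm6 and Timm13 were above that median in both pairs by more than their intervals. Timm8b was above it in the anaesthetised pair, with an interval that includes it in the post-mortem pair, and Tomm5 (2907 bp) was below it in both. Among genes from 10000 to 20000 bp, the range that holds Tomm40 and Timm44, 4.39% were called lower. Of the 944 genes in this range that overlap no gene on the opposite strand, 0.424% were called lower. Tomm40 and Timm44 each overlap a gene on the opposite strand. The measured import genes have a median span of 13512 bp, against 36475 bp over all measured genes. Whether span has a part in the ratios of single import genes was not tested.

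**Figure D3:**
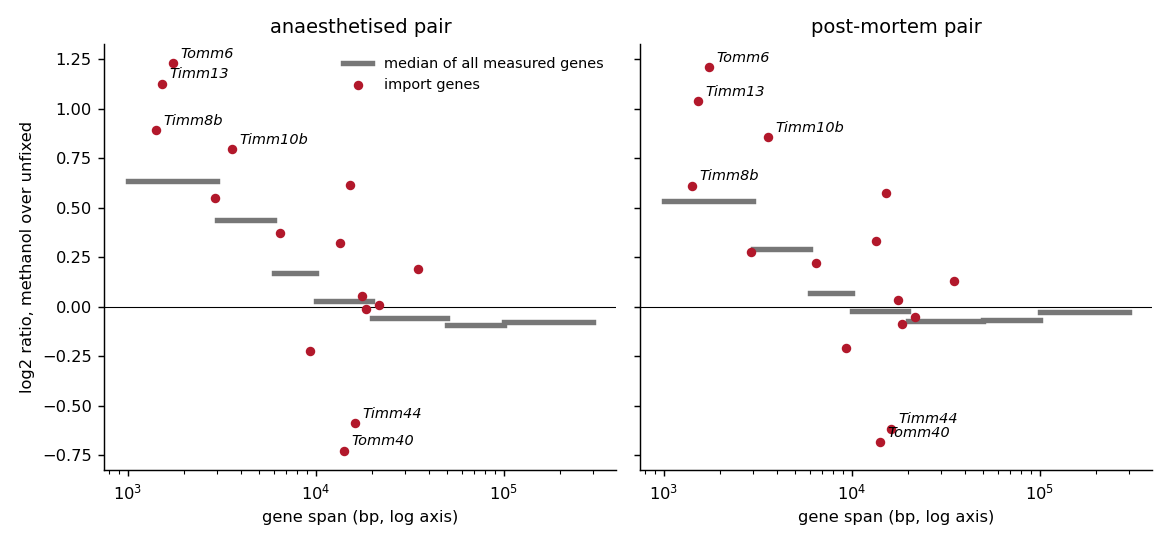
Methanol over unfixed log2 ratio of the 15 measured import genes (points) against gene span on a log axis in bp, with the median of all measured genes in each span range as grey bars, for the anaesthetised and the post-mortem pair. The medians are highest for the shortest genes, the 4 import genes called higher lie at or above the bars of the shortest genes, and Tomm40 and Timm44 lie below the bars of genes of their span.

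Overlap with other genes limits some of these values, since the strand setting of the counting is not given in the sources used here. Of the 15 measured import genes, 10 overlap a gene on the opposite strand (66.7%, against 50.6% of all measured genes). Tomm6 overlaps Usp49, whose mean CPM, not corrected for length, was 2.30 times as high and whose log2 ratios were -0.44 in the anaesthetised pair and -0.40 in the post-mortem pair, opposite in sign to those of Tomm6. Timm8b overlaps Nkapd1 (1.31 times its mean CPM), whose ratios of 0.26 and 0.03 had the sign of those of Timm8b. Timm10b overlaps Arfip2 (0.920 times), with ratios of -0.11 and -0.34, and Timm13 overlaps Tmprss9 (0.179 times), with ratios of -0.42 and -0.45. The partner of Tomm40, Gm20512, had 0.161 CPM, and that of Timm44, Gm26102, was not among the counted genes. The part of overlapping genes in these ratios was not tested.

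Between harvests the import genes differed by less, and their ratios lay on 1 side of 0 except with equal class weights, where 6 genes in the methanol pair and 4 in the unfixed pair changed sign. Under anaesthesia 0 of the 15 measured import genes were called higher, where 1.7% of all measured genes were, and 0 were called lower, where 1.11% of all were. All 15 nevertheless had anaesthetised over post-mortem ratios below 0 in both pairs, as did 59.1% of all measured genes. Their median log2 ratio was -0.21 in the methanol pair and -0.33 in the unfixed pair, against -0.08 and -0.10 over all measured genes. Timm10b had the lowest ratio of the 15 in the methanol pair, at -0.41 (-0.50 to -0.31), with -0.35 (-0.48 to -0.21) in the unfixed pair. In the unfixed pair Timm8b was the lowest, at -0.45 (-0.65 to -0.26), with -0.17 (-0.31 to -0.04) in the methanol pair. Short genes as a whole had lower ratios here too, with medians of -0.26 and -0.37 for the 241 genes under 3000 bp. Of all genes called between harvests 60.4% were higher, a share that became 79.3% with median-of-ratios scaling. The gated shares of nuclei also moved with harvest. Excitatory nuclei were 30.6% and 23.9% of the anaesthetised methanol and unfixed libraries, against 20.5% and 17.4% of the post-mortem ones, and medium spiny nuclei were 12.1% and 11.1%, against 16.1% and 18.4%. With equal weights for the classes, the import sum had log2 ratios of -0.14 in the methanol pair and -0.12 in the unfixed pair. The part of nuclear composition in each single ratio was not tested.

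Other genes of the import pathway were read from a list of 27 that covers the sorting machinery of the outer membrane, the TIM23 motor, intermembrane space oxidation, peptidases, the inner membrane insertase and matrix chaperones. Of its 25 measured genes 0 were called in either direction in either comparison, where with methanol 3.48% of all measured genes were called higher and 4.33% lower, and under anaesthesia 1.7% and 1.11%. Under the minimum, Grpel1, a cofactor of the motor, had methanol over unfixed log2 ratios of 0.68 and 0.83 and Romo1 had 1.05 and 1.05 in the anaesthetised and post-mortem pairs, past the 1.5-fold mark. In medium spiny nuclei 2 of 23 were called higher with methanol, where 4.95% of all genes were. With methanol 12 of the 25 were above 0 in both pairs and 9 below, where 40.9% and 47.1% of all genes were, and the medians were 0.08 in the anaesthetised pair and -0.04 in the post-mortem pair. With anaesthesia 22 of 25 were below 0 in both pairs, where 59.1% of all genes were. Hspa9, the mitochondrial Hsp70 that drives the motor bound by Timm44, had 56.7 and 65.0 CPM in the anaesthetised and post-mortem methanol libraries, against 58.1 and 73.5 CPM in the unfixed ones. Mtch2, an insertase of the outer membrane, had 76.6 and 96.5 CPM against 60.5 and 77.8 CPM, and Agk, the lipid kinase that is a TIM22 subunit, had 77.3 and 85.4 CPM against 84.7 and 94.6 CPM. Immp2l, an inner membrane peptidase encoded by a very long gene, had 214 CPM in both methanol libraries against 204 and 192 CPM in the unfixed ones. The other genes with the highest level of their lists, Aifm1, Oxa1l and Hspd1, had methanol over unfixed log2 ratios from -0.13 to 0.16.

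Nuclei were then split into classes by marker genes. Each of the 7 classes had at least 129 nuclei per library, and none of the import genes is a marker. Gad1, Gad2 and Slc32a1, which mark inhibitory neurons, were left out of the UMI cut of the inhibitory gate. They could still count among its 2 different markers, so they were no independent check of it. They had 5.34 to 6.49 UMIs per 10000 in inhibitory nuclei and 3.43 to 4.29 in medium spiny nuclei, against 0.0814 to 0.250 in excitatory nuclei. Excitatory nuclei held 10.4 to 11.5 UMIs per 10000 of their own markers and 8.18 to 11.6 of the medium spiny markers, which in the anaesthetised unfixed library were at 11.6, against 11.5 for their own. In medium spiny neurons, the GABAergic projection neurons of the striatum, all import genes together had 662.3 and 720.6 CPM in the anaesthetised and post-mortem methanol libraries, against 560.8 and 639.9 CPM in the unfixed ones. Inhibitory nuclei had 644.0 and 688.9 CPM, against 561.5 and 674.0 CPM. They were below medium spiny nuclei in the methanol libraries, above them in the post-mortem unfixed library and about level in the anaesthetised unfixed library. The counting intervals of inhibitory and medium spiny nuclei overlapped in every library. Excitatory nuclei had 482.7 and 573.3 CPM, against 440.7 and 507.5 CPM, the lowest of the 3 neuronal classes in every library.

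Tomm70a set medium spiny neurons apart. It had 155 CPM in the anaesthetised methanol library, 166 CPM in the post-mortem methanol library, 119 CPM in the anaesthetised unfixed library and 137 CPM in the post-mortem unfixed library. The other 6 classes lay between 24.8 and 58.2 CPM over the 4 libraries. The next highest class differed by library, and medium spiny nuclei were above it by 2.75-fold (1.75 to 4.59) over microglia, 2.86-fold (2.09 to 4.01) over astrocytes, 2.06-fold (1.31 to 3.43) over microglia and 2.43-fold (1.49 to 4.27) over precursors, in the same order of libraries. In medium spiny nuclei its methanol over unfixed log2 ratios were 0.39 (anaesthetised pair) and 0.28 (post-mortem pair). The overlapping gene Nit2 had a mean of 5.59 CPM. Tomm20 was also high in medium spiny nuclei with methanol, at 29.0 and 31.2 CPM in the anaesthetised and post-mortem libraries, against 19.3 and 15.5 CPM without, where it did not stand above all glia.

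**Figure D4:**
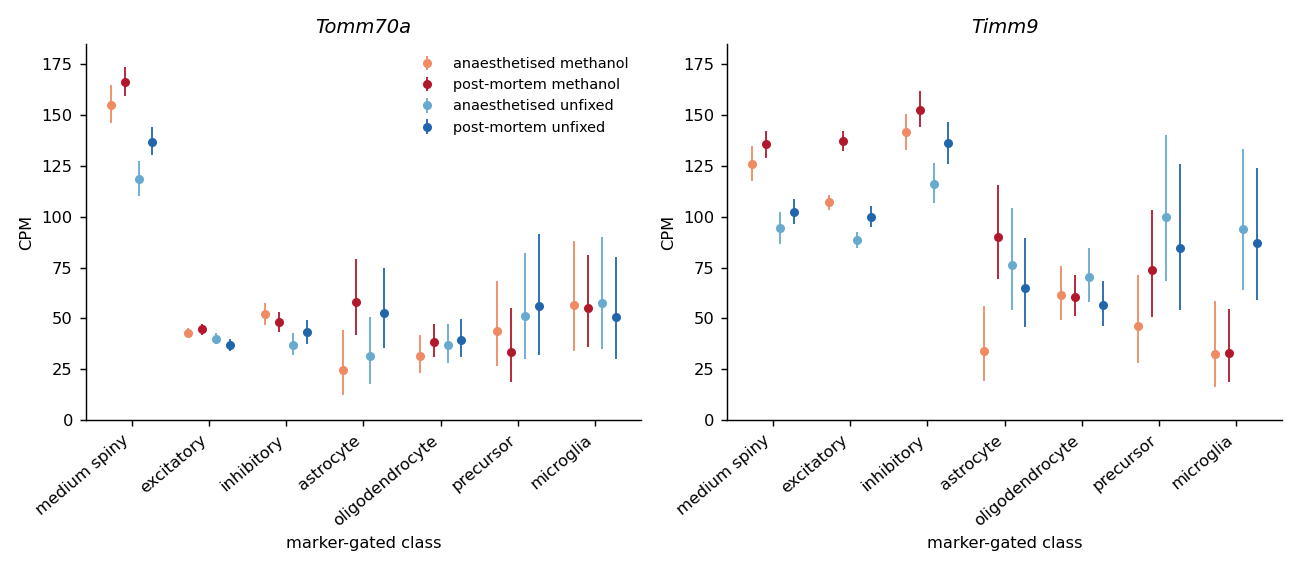
Tomm70a (left) and Timm9 (right) in 7 marker-gated classes, in CPM with exact 95% counting intervals, with the 4 libraries of a class side by side. Tomm70a lies from 119 to 166 CPM in medium spiny nuclei and at or under 58.2 CPM elsewhere, and Timm9 lies lower in methanol than in unfixed microglia.

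Timm9 was higher in neurons than in glia. Across the 3 neuronal classes it had 107 to 153 CPM in the methanol libraries and 88.5 to 136 CPM in the unfixed ones, and across the 4 glial classes 32.6 to 90.2 CPM in the methanol libraries and 56.6 to 99.7 CPM in the unfixed ones. In 3 of the 4 libraries every neuronal class was above every glial one, and in the anaesthetised unfixed library precursors (99.7 CPM) and microglia (94.1 CPM) were above excitatory nuclei (88.5 CPM). In microglia, the immune cells of the brain, Timm9 had 32.6 and 33.1 CPM in the anaesthetised and post-mortem methanol libraries, against 94.1 and 87.3 CPM in the unfixed ones. It fell there by log2 ratios of -1.49 (-2.67 to -0.50) and -1.37 (-2.39 to -0.47), on 11 and 15 UMIs against 31 and 31. In the anaesthetised pair the fall was not confined to microglia. All 4 glial classes were lower in that pair with methanol, at most 61.5 CPM against at least 70.4 CPM. Only microglia had intervals wholly below 0 in both pairs. In the post-mortem libraries the highest glial class had 90.2 CPM with methanol, against 87.3 CPM without. Some markers of other cells were lower in microglia with methanol too. The medium spiny markers had 0.949 and 2.67 UMIs per 10000 in methanol microglia of the anaesthetised and post-mortem libraries, against 5.16 and 6.81 in unfixed microglia, and the inhibitory markers 0.504 and 1.01 against 3.55 and 2.98. The oligodendrocyte markers had 1.39 and 2.34, against 5.59 and 6.78. The astrocyte markers were about level, at 3.38 and 3.51 against 3.46 and 2.76, and the excitatory markers were at or near 0 in all 4. The microglial markers themselves were higher with methanol, at 189 and 188 against 82.3 and 90.7. The part of RNA from other cells in the Timm9 ratio was not tested.

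The genes that moved in all nuclei were then read in each class. In excitatory nuclei Tomm6, Timm8b, Timm10b and Timm13 were called higher with methanol, 4 of 13 measured import genes where 4.66% of all genes were, and Tomm40 lower, where 4.22% of all were. In medium spiny nuclei Tomm6, Timm10b and Timm13 were called higher, 3 of 14 where 4.95% of all were, and Tomm40 lower, where 5.79% of all were. In inhibitory nuclei Tomm5, Tomm6, Tomm20, Timm8b and Timm13 were called higher, 5 of 16 where 2.92% of all were, and 0 lower, where 4.04% of all were. Tomm6 and Timm13 were thus called in every neuronal class, although in inhibitory nuclei the calls of Timm13, Tomm20 and Tomm5 were lost with every nucleus weighted the same, and that of Tomm5 also with a stricter gate or with doublets kept. Tomm6 had 13.4 and 16.5 CPM in excitatory nuclei of the anaesthetised and post-mortem methanol libraries, against 5.12 and 5.95 CPM in the unfixed ones, at log2 ratios of 1.38 (1.07 to 1.71) and 1.47 (1.14 to 1.82). Timm13 had 21.05 and 20.7 CPM in medium spiny nuclei, against 7.57 and 6.79 CPM, at log2 ratios of 1.46 (0.99 to 1.98) and 1.6 (1.23 to 2.00). Tomm40 had 29.6 and 34.4 CPM there, against 57.2 and 58.9 CPM, at log2 ratios of -0.95 (-1.21 to -0.70) and -0.77 (-0.96 to -0.59). In inhibitory nuclei its ratios were -0.63 and -0.57, and it missed the mark. Timm44 was below 0 in both pairs in all 7 classes, from -0.82 to -0.34, and was called in 0 of them.

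Glial classes held fewer UMIs and wider intervals. In oligodendrocytes, the myelin-forming glia, 2 of 18 measured import genes were called higher, where 3.22% of all genes were, and 0 lower, where 13% of all were. They were Tomm6, with 25.8 and 24.5 CPM in the anaesthetised and post-mortem methanol libraries against 13.1 and 13.5 CPM in the unfixed ones, and Timm50, with 23.7 and 29.5 CPM against 8.72 and 14.5 CPM. Timm50 had log2 ratios of 1.42 (0.51 to 2.46) and 1.00 (0.36 to 1.72). The oligodendrocyte markers stood at 286 and 275 UMIs per 10000 in these methanol nuclei, against 166 and 187 in the unfixed ones, and the medium spiny markers at 0.943 and 1.80, against 4.30 and 5.38. Their part in the calls was not tested. In this class median-of-ratios scaling moved the median of all genes up by about the same amount in both pairs, to 0.09 and 0.07 where it was -0.12 and -0.12, and the share of higher genes among those called to 45.2%, where it was 19.9%. In astrocytes the scaling moved the median of all genes to 0.02 in the anaesthetised and 0.01 in the post-mortem pair, where it was -0.09 and -0.12. It moved the share of higher genes among those called in astrocytes to 58.3%, where it was 40.8%, in excitatory nuclei to 60.8%, where it was 52.5%, in medium spiny nuclei to 58.8%, where it was 46.1%, in inhibitory nuclei to 53.8%, where it was 42.0% and in precursors to 56.3%, where it was 44.7%. In microglia Timm10b was called higher, 1 of 7 where 7.6% of all were, with 94.9 and 99.3 CPM against 24.3 and 53.5 CPM, and Timm9 was the 1 called lower, where 10.2% of all were. The Timm10b log2 ratios were 1.90 (0.82 to 3.30) and 0.87 (0.09 to 1.75), in the same microglia whose own markers were higher with methanol. In oligodendrocyte precursors Timm10b was called higher, 1 of 6 where 4.15% of all were, with 17 and 27 UMIs against 5 and 6, and an interval that includes 0 in the anaesthetised pair; 0 were lower, where 5.12% of all were. The precursor nuclei also held the inhibitory-list markers, at 37.4 to 46.1 UMIs per 10000 as medians over nuclei, of which Nxph1 and Adarb2 gave 36.96 to 45.9, beside 24.9 to 33.8 of the precursor markers. In astrocytes 0 of 9 were called higher or lower, where 5.04% and 7.33% of all were.

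**Figure D5:**
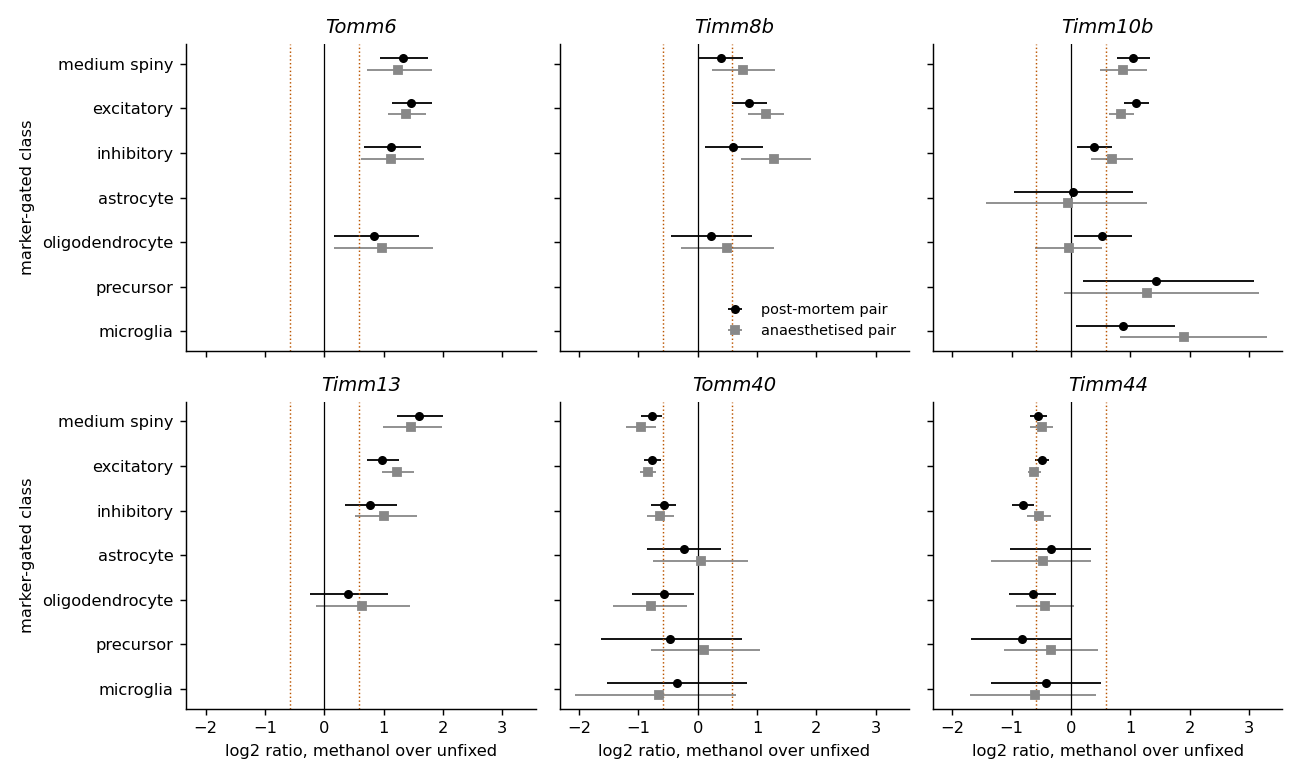
Methanol over unfixed log2 ratio of the 6 import genes called in all nuclei, by marker-gated class, with exact 95% counting intervals and dotted lines at 1.5-fold, shown where a class had at least 50 UMIs and a mean of 10 CPM for the gene. Tomm6 and Timm13 lie past 1.5-fold in all 3 neuronal classes, and Tomm40 does in excitatory and medium spiny nuclei.

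Between harvests 2 class-level calls were made. Tomm70a in astrocytes had 24.8 CPM in the anaesthetised methanol and 31.3 CPM in the anaesthetised unfixed library, against 58.2 CPM and 52.6 CPM in the post-mortem methanol and unfixed libraries, on 11 and 16 UMIs against 40 and 30, and was the 1 of 9 called lower, where 1.73% of all were, with 0 called higher, where 2.6% of all were. This call was lost with a stricter gate (-0.49 in the unfixed pair) and with doublets kept (-0.35). Tomm34 in microglia had 83.0 and 60.7 CPM in the anaesthetised methanol and unfixed libraries, against 39.7 and 39.4 CPM in the post-mortem ones, on 28 and 20 UMIs against 18 and 14, and was the 1 of 7 called higher, where 1.14% of all were, with 0 called lower, where 2.1% of all were. Its log2 ratios were 1.05 (0.16 to 2.01) in the methanol pair and 0.61 (-0.43 to 1.72) in the unfixed pair, where the interval includes 0. In the other 5 classes 0 import genes were called between harvests, while of all genes 2.85% were called higher and 2.07% lower in excitatory, 0.832% and 0.618% in medium spiny, 0.865% and 0.682% in inhibitory nuclei, 0.617% and 0.758% in oligodendrocytes and 1.05% and 1.88% in precursors. Median-of-ratios scaling moved the share of higher genes among those called between harvests to 70.4% in excitatory nuclei, where it was 57.96%, to 72.7% in inhibitory nuclei, where it was 55.9%, and to 47.4% in astrocytes, where it was 60.1%. The anaesthetised over post-mortem ratio of the import sum was below 0 in both pairs in 6 of 7 classes, the exception being precursors. Its intervals lay wholly below 0 in both pairs in the 3 neuronal classes, and they included 0 in both pairs in oligodendrocytes (-0.09 and -0.07) and microglia (-0.06 and -0.12) and in the unfixed pair in astrocytes (-0.06). The methanol over unfixed ratio of the sum was above 0 in both pairs in the 3 neuronal classes. In inhibitory nuclei its interval includes 0 in the post-mortem pair (0.03, from -0.03 to 0.09). The ratio was below 0 in both pairs in precursors and oligodendrocytes. In precursors it was -0.32 (-0.60 to -0.03) in the anaesthetised and -0.13 (-0.41 to 0.17) in the post-mortem pair. In oligodendrocytes it was -0.04 and -0.03, with intervals that include 0. With median-of-ratios scaling the ratio was above 0 in 6 classes.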

How the data were processed

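Deposited counts were used. They are whole-number UMI counts per gene and barcode, made by the authors with a 3' droplet kit (SeekOne DD) per the labels' protocols. Per the submitters' processing notes the genome build was mm10; aligner, caller, annotation release and strand setting are not given in the sources used here. Barcodes needed at least 500 UMIs, at least 300 genes and no more than 5% of UMIs from genes of the mitochondrial genome, and doublets were removed per library (9.19% to 15.3%) with Scrublet in scanpy 1.11.5 at an assumed rate of 6%. The 4 kept libraries held 51088678 to 64653047 UMIs. UMIs were summed per library and class. Log2 ratios of CPM used 0.5 added counts, and 95% intervals were exact conditional ones (scipy 1.17.1, numpy 2.4.6, pandas 2.3.3, python 3.11.15). They cover counting error only. The ratio and call functions were tested on simulated data.

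Classes were gated on marker UMIs per 10000 UMIs (excitatory 5, medium spiny 30, inhibitory 20, astrocyte 30, oligodendrocyte 50, precursor 10, microglia 30), from at least 2 different markers and below the cut of the other classes, except that inhibitory markers did not exclude precursors. The cuts were set after marker counts had been seen. Between 23.2% and 39.2% of nuclei met no gate, vascular nuclei (12 to 29 per library) were left out, and shares of classes depend on the cuts. A gene was compared in a class at a mean of 10 CPM and 50 UMIs over the libraries.

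Spans and overlaps came from GENCODE M21 (32235 of 32285 identifiers matched). The members and lists were chosen with earlier results of these data known. Named were all members, with ratios for those called and for the 2 highest of a role, and in classes those called and up to 5 with the highest level; Tomm20 in medium spiny nuclei and Tomm5, Tomm40l and the members under the minimum were named after their values had been seen. Alternatives were other filters, scaling, weights, folds, minimums and gates. No per-sample columns of other samples were present (0).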

Additional observations from a re-analysis of the deposited data

Results flagged for a closer look

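Timm9 went opposite ways with methanol in neurons and in microglia, in both pairs of libraries. Its methanol over unfixed log2 ratio in the anaesthetised and the post-mortem pair was 0.28 and 0.46 in excitatory nuclei, 0.42 and 0.40 in medium spiny nuclei and 0.28 and 0.17 in inhibitory nuclei, against -1.49 and -1.37 in microglia. In the anaesthetised pair all 4 glial classes were lower with methanol, at most 61.5 CPM against at least 70.4 CPM, but only microglia had intervals below 0 in both pairs. The difference between the classes was not tested. The microglial values rest on 11 and 15 UMIs in the methanol libraries, against 31 and 31 in the unfixed ones. The medium spiny, inhibitory and oligodendrocyte markers in microglia were lower with methanol too, while the astrocyte markers were about level. With doublets kept, the post-mortem ratio in microglia was -0.92.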

How the results depend on the processing

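No paired analysis was possible because each group holds 1 library. Each group being 1 library, no result has a replicate check, and depth limits glial classes most. Of 84 comparisons of the main values with an alternative, 55 stayed within their counting interval or within 1.5 times the count and 29 did not. For single genes and classes 565 of 656 did, 78 moved, and 13 changed sign where the main interval excluded 0. Sign changes of values whose main interval included 0 were not counted as such. Sums are methanol over unfixed in the anaesthetised and the post-mortem pair, then anaesthetised over post-mortem in the methanol and the unfixed pair. The import sum had log2 ratios of 0.21, 0.18, -0.15 and -0.18 with median-of-ratios scaling, and 0.034, 0.051, -0.14 and -0.12 with equal class weights. With every nucleus weighted the same, the post-mortem fixation sum was 0.078 and the harvest sums were -0.19 and -0.23. With doublets kept, the post-mortem fixation sum was 0.13. Without genes that overlap an opposite-strand gene, the anaesthetised fixation sum was 0.19 and the unfixed harvest sum -0.30, and 0 genes were called higher and 0 lower with methanol, since the called genes with a partner leave the list. The count called higher with methanol became 2 at 2-fold and 1 at a mean of 20 CPM, where fewer genes were tested. The count called lower became 1 with doublets kept, every deposited barcode, median-of-ratios scaling or equal nuclear weights, where Timm44 dropped out, and 0 with equal class weights or at 2-fold. Classes with a higher import sum in both fixation pairs became 6 with median-of-ratios scaling and 5 with equal nuclear weights, and classes with a lower sum became 1 under both and with doublets kept. Of 21 calls within classes, 17 were kept under every alternative tried on them and 4 were lost under at least 1. All 13 of these sign changes came with equal class weights. Methanol over unfixed in the anaesthetised pair they were Tomm40l (-0.12), Tomm5 (-0.14) and Timm9 (-0.22). Anaesthetised over post-mortem in the methanol pair they were Tomm20 (0.23), Tomm40 (0.016), Tomm34 (0.062), Timm8b (0.028), Timm13 (0.048) and Timm22 (0.11). In the unfixed pair they were Tomm20 (0.36), Tomm34 (0.24), Timm9 (0.018) and Timm17a (0.021). The cause was not tested.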
